A study of Mus musculus with 13 samples.

Results

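The genes described are 7 core factors of DNA mismatch repair (Msh3, Msh6, Mlh3, Pms1, Pms2, Exo1 and Pcna). They were chosen by name for their role in the pathway, and all 7 were found among the 23366 genes measured in mouse pancreas. Expression was measured by RNA sequencing of whole pancreas, as log2 RPKM (reads scaled to transcript length and library size, on a log2 scale), in 13 female mice. The young group (n = 4, 13 weeks) and the old group (n = 5, 55 weeks) were not given doxycycline, while the old-OSKM group (n = 4, labelled 58 weeks) received doxycycline for 7 days and was then left to recover for 2 weeks. All of these animals, controls included, are reprogrammable i4F-B mice, in which a cassette for OCT4, SOX2, KLF4 and MYC (OSKM) that doxycycline switches on was inserted into Pparg. The cassette is meant to be inducible in every tissue. Which cells of the old-OSKM pancreas expressed it was not measured in these data. Because the old mice received no doxycycline and are labelled as younger, the drug, the cassette and the extra weeks of age cannot be told apart.

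Mismatch repair removes bases that were wrongly paired or slipped during DNA replication. A MutS protein pair recognizes the error, a MutL protein pair is recruited and cuts the new strand, an exonuclease removes the stretch that holds the error, and the replication machinery, held on the DNA by a ring-shaped clamp, fills the gap. The pancreas of an adult mouse is made mostly of acinar cells that rarely divide, and several of these factors are known to be made at higher levels in dividing cells.

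The members sit on 6 chromosomes (GRCm38.p6, the assembly behind mm10). Msh3 lies at chr13:92211878-92355004 (minus strand), Msh6 at chr17:87975050-87990892 (plus), Mlh3 at chr12:85234466-85270647 (minus), Pms1 at chr1:53189187-53297031 (minus), Pms2 at chr5:143909901-143972745 (plus), Exo1 at chr1:175880768-175911396 (plus) and Pcna at chr2:132249286-132253180 (minus). All are protein-coding genes, and several have a gene on the opposite strand that starts within 1 kb of their own start. Pms1 starts 64 bases from Ormdl1, Pms2 62 bases from Aimp2, Pcna 158 bases from Cds2 and Exo1 13 bases from a long non-coding RNA, Gm36360. The paper does not say that its library kit marks strand. If it does not, reads in the 34 bases that Msh6 shares with Fbxo11 could not be assigned to either strand. The same holds for the 22367 bases in which Gm17135 lies opposite Pms2.

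Because E2F factors are known regulators of replication genes, the RefSeq promoters (GRCm38.p6, 250 bases before to 50 bases after the start) of 6 of the 7 members were searched on both strands for the E2F sites TTTGGCGC, TTTCCCGC, TTTGCCGC and TTTCGCGC. A promoter of Exo1 was not used here. A site was found in 2 of the 6, Msh3 and Msh6, and 2.26% of all 32851 promoters (744) hold one. Below are both of them and, for contrast, that of Pcna, the member with the highest level. Each is written 5′ to 3′ on the gene's strand with the sites in capitals.
Msh3 (chr13:92354954-92355253): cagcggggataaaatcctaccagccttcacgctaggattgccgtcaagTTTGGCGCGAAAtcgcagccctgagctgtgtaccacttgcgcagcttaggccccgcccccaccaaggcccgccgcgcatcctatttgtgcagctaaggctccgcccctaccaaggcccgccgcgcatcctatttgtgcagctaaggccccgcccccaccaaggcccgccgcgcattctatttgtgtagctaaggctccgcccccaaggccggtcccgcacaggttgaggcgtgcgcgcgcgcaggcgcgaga
Msh6 (chr17:87974800-87975099): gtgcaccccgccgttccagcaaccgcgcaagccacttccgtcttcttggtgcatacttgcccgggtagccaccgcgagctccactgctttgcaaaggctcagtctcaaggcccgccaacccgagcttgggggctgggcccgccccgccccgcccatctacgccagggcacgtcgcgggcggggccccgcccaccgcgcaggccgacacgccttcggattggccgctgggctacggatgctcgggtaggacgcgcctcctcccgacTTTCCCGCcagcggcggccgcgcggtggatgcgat
Pcna (chr2:132253131-132253430): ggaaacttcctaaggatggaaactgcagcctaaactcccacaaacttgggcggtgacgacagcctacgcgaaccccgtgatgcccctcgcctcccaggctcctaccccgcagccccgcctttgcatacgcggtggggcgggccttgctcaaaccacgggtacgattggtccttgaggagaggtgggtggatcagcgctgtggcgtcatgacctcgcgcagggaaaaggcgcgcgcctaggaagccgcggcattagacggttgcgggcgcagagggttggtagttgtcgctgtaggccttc
The capitals in Msh3 are a pair of overlapping sites on opposite strands, which begin 202 and 198 bases before the start, while the site in Msh6 begins 15 bases after it. None of the 4 site spellings occurs in these windows of Pcna, Pms1, Pms2 or Mlh3. The matches are letters in a window and were not measured as bound sites.

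The levels of the 7 genes span from moderately abundant to barely detected, and their order was nearly the same in every mouse. Pcna, the sliding clamp, had the highest mean over the 13 mice (1.61 log2 RPKM, 3.05 RPKM), higher than 88.1% of all genes. The mismatch-recognition genes Msh6 (0.32) and Msh3 (0.17) and the MutL homolog Mlh3 (0.07) followed at about the level of 1 RPKM. Pms2, the MutL homolog whose protein cuts the DNA strand, was lower (-0.77), as was Pms1, a MutL homolog whose part in repair is less clear (-1.35). Exo1, the exonuclease of the pathway, was by far the lowest (-3.95, or 0.0648 RPKM), with only 5.96% of all genes below it. RPKM is per transcript length, so these levels can be set side by side, although reads cover a gene with a low RPKM thinly, and Pcna has pseudogene copies that may share reads with it.

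Neighbours in this order were compared within each mouse by a two-sided exact sign-flip permutation test, with p-values adjusted over the 6 pairs. The order came from the means of the same 13 mice, so the pairs were not chosen independently of the values tested. Pcna exceeded Msh6 by 1.29 ± 0.23 log2 units (SD, n = 13; exact adjusted p = 0.00037) and was 1.88 to 3.12 times the next highest member in every mouse. Msh6 exceeded Msh3 by 0.15 ± 0.18 in 11 of 13 mice (exact adjusted p = 0.018). Msh3 and Mlh3 were not separated (difference 0.10 ± 0.20, higher in 9 of 13 mice, exact adjusted p = 0.12), but without old mouse 4 the same test gave an exact adjusted p of 0.042. Mlh3 stood above Pms2 by 0.84 ± 0.20, Pms2 above Pms1 by 0.58 ± 0.32 and Pms1 above Exo1 by 2.60 ± 0.69, each in 13 of 13 mice (exact adjusted p = 0.00037, from the smallest p that 13 mice allow, 0.00024). In 4 mice Exo1 lay within 0.02 of its lowest value, so the size of the last of these differences depends on that value. Pcna, Pms2, Pms1 and Exo1 thus held ranks 1, 5, 6 and 7 in all 13 mice, and Msh6, Msh3 and Mlh3 exchanged ranks 2 to 4.

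**Figure D1:**
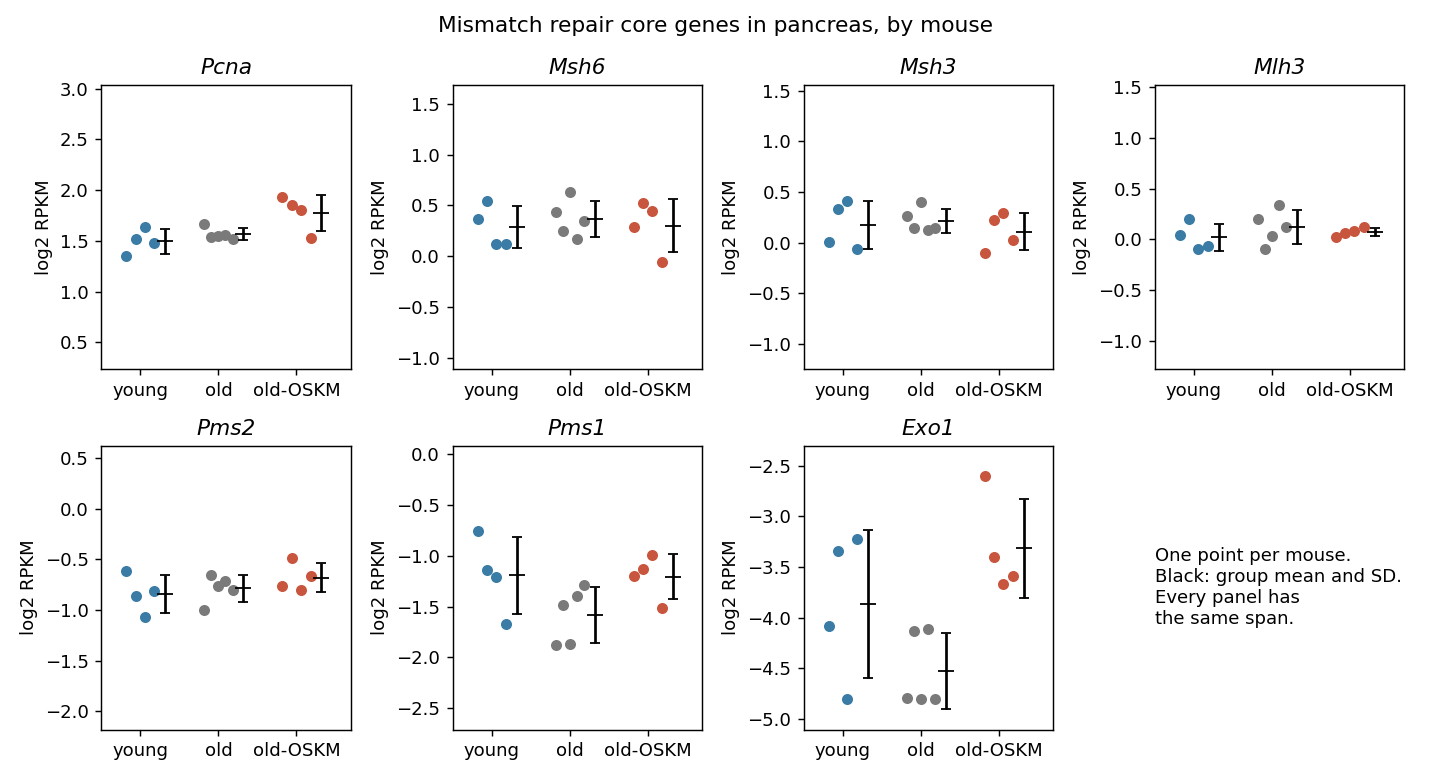
Log2 RPKM of the 7 mismatch repair genes (y axis, the same span in every panel) in young, old and old-OSKM mice (x axis), with 1 point per mouse and the group mean and SD in black. Groups overlap in every panel apart from old and old-OSKM mice for Exo1, where the 4 old-OSKM mice (-3.67 to -2.61) lie above the 5 old mice (-4.80 to -4.11).

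Whole-tissue facts that bear on these values are as follows. Acinar markers dominated all libraries (summed level of 9 genes 8113 to 8645 RPKM). The narrow range of this sum cannot show that acinar content was equal between mice. Quantile normalization gives every library nearly the same set of values, so a gene that keeps its rank keeps its value. Of these genes, Cela2a (11 log2 RPKM) and Ctrb1 (11.11 log2 RPKM) read the same in every mouse. In the 8407 genes with a mean above 0 log2 RPKM, old-OSKM mouse 4 differed from the mean of its group mates by 0.522 log2 units (root mean square), against 0.253 to 0.277 for the other old-OSKM mice, and it had the highest islet, fibroblast, endothelial, adipocyte and erythroid sums of all mice. Old-OSKM mouse 1 had the highest sums for mitosis genes (7.74 RPKM, against at most 3.72 in any other mouse), macrophage genes (38.2 against at most 31.4) and T cell genes (4.49 against at most 1.73). Fewer cells of a type and less RNA per cell cannot be told apart in these bulk samples. The table holds no counts, so the number of reads behind each value is unknown, and only the spread between mice measures its error. The labels give the tissue, treatment and age of each mouse, and each sample was taken as a separate mouse. The 3 comparisons below share mice with each other, so values from different comparisons are set side by side and not tested against each other.

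The comparison of old with young mice asked whether the pathway changes with age. None of the 7 members differed at an adjusted p under 0.05 (limma, Benjamini-Hochberg over 23366 genes), against 0.0813% of all genes. None passed the study's own rule of a fold change over 1.5 with raw p under 0.01, against 0.886% of all genes, and none had a raw p under 0.05, against 5.52%. The median of their differences was 0.05 log2 units, beside 0.001 for all genes.

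Msh3 and Msh6 recognize errors, Msh3 mainly longer loops of slipped bases and Msh6 mainly single mismatches. Msh3 read 0.01, 0.34, 0.41 and -0.07 in the young mice and 0.26, 0.15, 0.40, 0.12 and 0.15 in the old mice. The old values lie within the young range, and the difference was 0.04 (95% interval -0.21 to 0.30). Msh6 read 0.36, 0.54, 0.12 and 0.11 in young and 0.43, 0.25, 0.64, 0.17 and 0.35 in old mice, a difference of 0.08 (-0.22 to 0.38) with overlapping groups. For both, the interval leaves out a change by the study's fold of 1.5 in either direction.

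The MutL homologs had differences of both signs. Mlh3, known best for its part in meiotic crossing-over, read 0.04, 0.20, -0.10 and -0.07 in young and 0.20, -0.10, 0.04, 0.34 and 0.12 in old mice (difference 0.10, interval -0.09 to 0.29). Pms2 read -0.61, -0.86, -1.07 and -0.82 in young and -0.998, -0.66, -0.76, -0.72 and -0.81 in old mice (0.05, interval -0.17 to 0.27). The groups overlap for both genes. Pms1 read -0.75, -1.14, -1.21 and -1.68 in young and -1.87, -1.49, -1.87, -1.39 and -1.29 in old mice. Old mice were lower on average by 0.39 log2 units, but young mouse 4 lies inside the old range, and the difference did not pass the tests (limma raw p = 0.062, adjusted p = 0.94; exact permutation p = 0.13). Leaving out young mouse 4 moved it to -0.55 (limma adjusted p = 0.76) and leaving out old mouse 5 to -0.46 (limma adjusted p = 0.98), in both cases with a raw p under 0.05, while leaving out young mouse 1 moved it to -0.24 (limma adjusted p = 1.0) with a raw p above 0.05.

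Pcna was close to constant with age: it read 1.35, 1.52, 1.64 and 1.48 in young and 1.66, 1.54, 1.55, 1.56 and 1.52 in old mice (difference 0.07, interval -0.11 to 0.25). Exo1 read -4.08, -3.35, -4.80 and -3.22 in young and -4.79, -4.13, -4.80, -4.11 and -4.80 in old mice. Its 4 lowest mice, young mouse 3 and old mice 1, 3 and 5, lie within 0.02 of each other, with the next mouse at -4.13, a nearly constant lowest value, and a fold against such values is not a measured fold. The mean difference of -0.66 (interval -1.40 to 0.07) had a raw p of 0.074 by limma and an exact permutation p of 0.14. Leaving out young mouse 3 moved it to -0.98 (limma adjusted p = 0.48), which met the study's rule, so that call turns on 1 mouse.

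The comparison of old-OSKM with old mice asked how mice given doxycycline and left to recover differed from untreated old mice. Of the 7 members, Exo1 and Pcna were higher at a raw p under 0.05, while 8.07% of all genes had such a p and 3.98% were higher with it. Exo1 alone passed the study's rule, which 0.753% of all genes passed. None of the 7 passed an adjusted p under 0.05, which 1 of 23366 genes (0.00428%) did. The median of the members' differences was 0.11, beside -0.04 for all genes, and 4 of 7 were above 0, beside 36.9% of all genes.

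Exo1 read -2.61, -3.40, -3.67 and -3.59 in the old-OSKM mice. All of these lie above the highest old mouse (-4.11), and 1.02% of all genes had old-OSKM mice above old mice without overlap. The group means were -3.32 ± 0.49 (SD, n = 4) and -4.53 ± 0.37 (SD, n = 5), a difference of 1.21 log2 units with a standard error of 0.34 and a 95% interval of 0.47 to 1.95. The limma raw p was 0.0040 and the adjusted p 0.55, and the exact permutation p was 0.0079, the smallest that 4 against 5 mice allow. Since 3 of the 5 old mice sit at the lowest value of the gene, the ratio of 2.32 on this scale depends on that value. With a pseudocount of 1 RPKM the difference shrank to 0.08, since Exo1 stays under 0.2 RPKM in every mouse. With each mouse left out the difference ran from 0.97 to 1.33 and the raw p stayed under 0.05, but it no longer met the study's bound of 0.01 without old mouse 1 (difference 1.14), old mouse 3 (1.14), old mouse 5 (1.14) or old-OSKM mouse 1 (0.97).

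Pcna read 1.93, 1.85, 1.80 and 1.52 in the old-OSKM mice. The first 3 lie above every old mouse, and old-OSKM mouse 4 lies inside the old range. The means were 1.78 ± 0.18 (SD, n = 4) against 1.57 ± 0.06 (SD, n = 5), a difference of 0.21 (interval 0.03 to 0.39), or 1.16-fold. It had a limma raw p of 0.026, an adjusted p of 0.55 and an exact permutation p of 0.071. Without old-OSKM mouse 4 the difference was 0.29 (limma adjusted p = 0.60), and without old-OSKM mouse 1 it was 0.16 (limma adjusted p = 0.77) with a raw p above 0.05.

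The other members overlapped between the groups. Pms1 read -1.19, -1.13, -0.99 and -1.51 in the old-OSKM mice, a difference of 0.38 (interval -0.04 to 0.79, limma raw p = 0.069, exact permutation p = 0.079), with old-OSKM mouse 4 again the lowest of its group. Pms2 read -0.77, -0.49, -0.80 and -0.66 (difference 0.11, interval -0.11 to 0.33). Neither passed a test in this fit, but Pms1 had a raw p under 0.05 with the 2 groups alone in the fit (limma adjusted p = 0.67) and without old-OSKM mouse 4 (limma adjusted p = 0.77). Msh3 read -0.10, 0.22, 0.29 and 0.02 (difference -0.11, interval -0.36 to 0.15), Msh6 0.29, 0.53, 0.44 and -0.06 (difference -0.07, interval -0.37 to 0.24) and Mlh3 0.02, 0.07, 0.08 and 0.12 (difference -0.05, interval -0.24 to 0.14). The 4 old-OSKM values of Mlh3 lie within 0.10 log2 units, inside the range of old mice. Msh3 and Msh6 had the lowest differences of the 7. Both were above 0 (0.044 and 0.12) without old-OSKM mice 1 and 4. In that setting 59.2% of all genes were above 0, beside 36.9% with all mice. The intervals of Msh3, Msh6 and Mlh3 leave out an increase by a fold of 1.5.

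**Figure D2:**
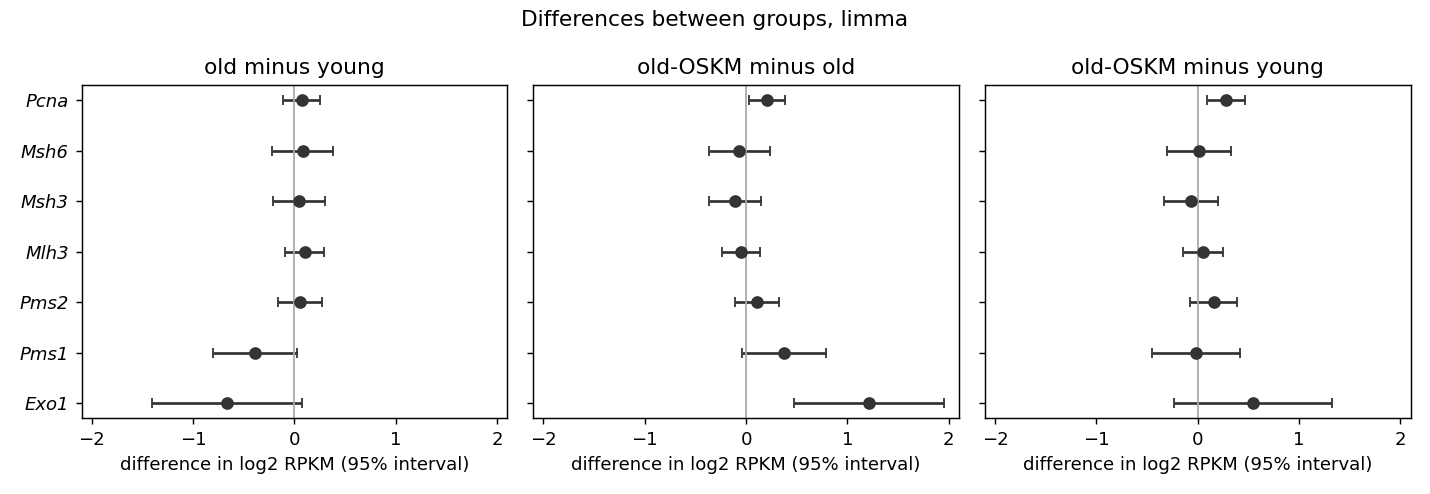
Difference in log2 RPKM between groups (x axis) for each member (y axis, ordered by level), with the 95% interval from limma, in the 3 comparisons. Intervals leave out 0 only for Exo1 (0.47 to 1.95) and Pcna (0.03 to 0.39) in old-OSKM against old mice and for Pcna (0.09 to 0.47) in old-OSKM against young mice, before adjustment for the number of genes.

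The comparison of old-OSKM with young mice asked how treated old animals stand against young ones. Pcna was the 1 member of 7 with a raw p under 0.05, beside 5.07% of all genes, and none passed the study's rule (0.625% of all genes) or an adjusted p under 0.05 (0.0428%). Pcna was 0.28 log2 units higher than in young mice (interval 0.09 to 0.47, limma raw p = 0.0076, adjusted p = 0.71, exact permutation p = 0.057 against a smallest possible 0.029). Side by side, Pcna was at 1.496 ± 0.121 in young, 1.57 ± 0.06 in old and 1.78 ± 0.18 in old-OSKM mice. Exo1 was at -3.86 ± 0.73 in young, -4.53 ± 0.37 in old and -3.32 ± 0.49 in old-OSKM mice, and old-OSKM and young mice overlapped (difference 0.55, interval -0.23 to 1.33, limma adjusted p = 0.71). Pms1 was at -1.19 ± 0.38 in young, -1.58 ± 0.27 in old and -1.21 ± 0.22 in old-OSKM mice, a difference of -0.01 between old-OSKM and young mice (interval -0.45 to 0.42). The remaining members differed from young mice by -0.06 (Msh3), 0.01 (Msh6), 0.05 (Mlh3) and 0.16 (Pms2), all with intervals that include 0. For Exo1 and Pms1 the old group has the lowest mean, while the order for Pcna is young, old, old-OSKM, and each of these patterns uses the old mice in both steps.

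The genes that work beside the members in gap filling were counted in the same way. Of 13 genes for the clamp loader, single-strand binding protein, DNA polymerase delta and ligase, 9 were above 0 in old-OSKM against old mice with a median of 0.04 (36.9% of all genes were above 0), 2 were higher at a raw p under 0.05 (beside 3.98% of all genes) and none passed adjustment. These were Rpa1, the large subunit of the single-strand binding protein (0.24, interval 0.03 to 0.44), and Rfc5, a clamp loader subunit (0.34, interval 0.03 to 0.64). Without old-OSKM mouse 1 none of the 13 had such a p (beside 2.56% of all genes), and without mice 1 and 4 there were 3 (2.26%). Lig1, the ligase that seals the repaired strand, differed by 0.34 (interval -0.02 to 0.69). In old against young mice 4 of the 13 were above 0, and Rpa3 (-0.41) and Rfc5 (-0.30) were lower at a raw p under 0.05, beside 2.52% of all genes (54.4% of all genes were above 0).

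Among 7 genes that load, unload or bind the clamp, 1 was lower at a raw p under 0.05 in old-OSKM against old mice, as were 4.08% of all genes. Cdkn1a, whose protein p21 binds PCNA and blocks the cell cycle, read 1.71, 1.92, 2.00, 2.28 and 2.33 in old mice and 1.82, 1.99, 1.09 and 0.21 in old-OSKM mice (difference -0.77, interval -1.53 to -0.0039, limma adjusted p = 0.55). Old-OSKM mice 3 and 4 lie below the old range and mice 1 and 2 inside it, and without old-OSKM mouse 4 the raw p was above 0.05. It was higher in old than in young mice by 0.92 (limma adjusted p = 0.76), with a raw p under 0.05. The median of the 7 genes was 0.32 in old-OSKM against old mice, with 5 above 0 (beside 36.9% of all genes), but 0.05 without old-OSKM mice 1 and 4. Of 4 mismatch repair cofactors, 1, Mcm9, a helicase linked to the pathway, was higher in every old-OSKM mouse (-0.51, -0.62, -0.39 and -0.61) than in any old mouse (-0.99, -0.68, -0.67, -1.02 and -0.84), by 0.30 (limma adjusted p = 0.55). It was also the 1 cofactor higher at a raw p under 0.05. Over all genes, 1.02% were higher without overlap and 3.98% were higher at a raw p under 0.05. Msh4 and Msh5, MutS homologs that act in meiosis, were near -4 and -3 log2 RPKM, and neither had a raw p under 0.05 in any comparison.

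Replication and mitosis genes had larger median differences than the members. Of 17 S phase genes, 15 were above 0 in old-OSKM against old mice (beside 36.9% of all genes), with a median of 0.45. Of the 17, 6 were higher at a raw p under 0.05 (beside 3.98% of all genes), 1 passed the study's rule (0.753%) and none passed adjustment. Mcm5 (1.02, interval 0.37 to 1.67) and Mcm6 (0.72, interval 0.21 to 1.23), parts of the replicative helicase, had the smallest p-values. The count higher at a raw p under 0.05 was 2 without old-OSKM mouse 1 (beside 2.56% of all genes), 9 without old-OSKM mouse 4 (2.88%) and 7 without both (2.26%). All 13 mitosis genes were above 0 (beside 36.9% of all genes), with a median of 0.74. Bub1 (0.98) and Kif11 (0.79) were higher at a raw p under 0.05 (beside 3.98% of all genes). Without old-OSKM mouse 1, 10 of 13 were above 0 (beside 37.6% of all genes), the median was 0.39 and no gene had such a p (2.56%). In old against young mice the medians were -0.26 (S phase, 2 of 17 above 0, 3 lower at a raw p under 0.05) and -0.37 (mitosis, 4 of 13 above 0, none at a raw p under 0.05). Over all genes in that comparison, 54.4% were above 0 and 2.52% were lower at a raw p under 0.05. The S phase and mitosis lists and the members are separate genes with no gene in common.

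**Figure D3:**
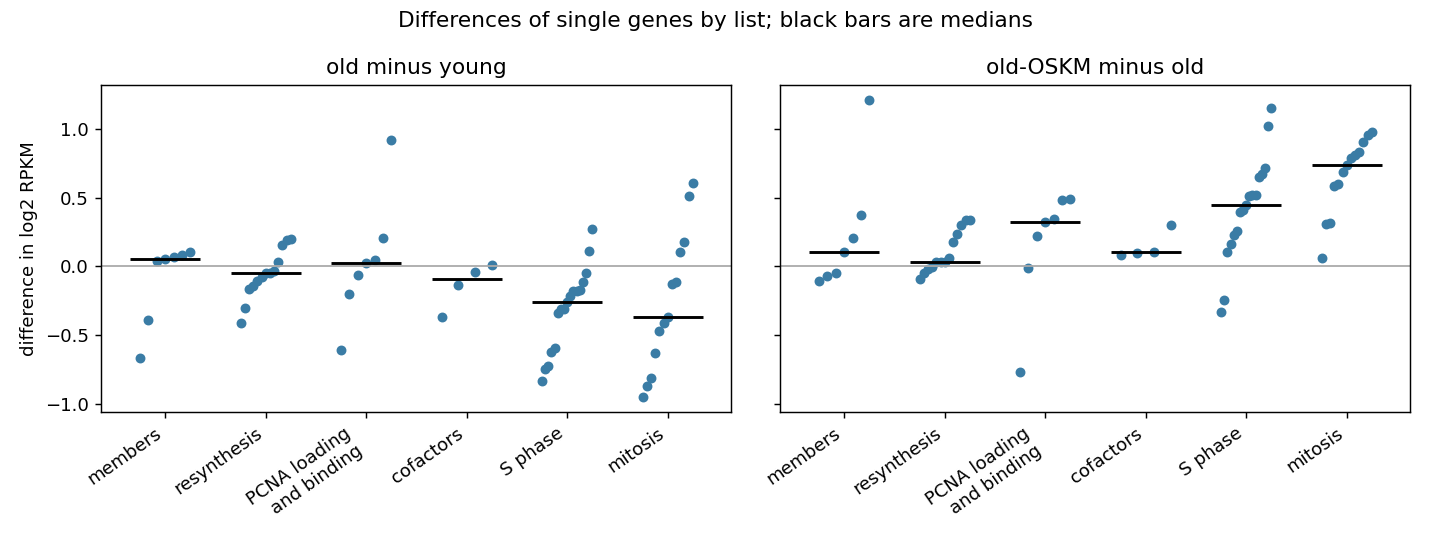
Difference in log2 RPKM (y axis) of every gene of each list (x axis, 1 point per gene, black bars are medians) in old against young mice and in old-OSKM against old mice. In old-OSKM against old mice the mitosis genes (median 0.74) and S phase genes (0.45) lie higher than the members (0.11), whose top point is Exo1 (1.21).

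The genes Cds2, Ormdl1 and Aimp2, which start opposite a member, passed no test. In old-OSKM against old mice Cds2, opposite Pcna, differed by 0.13, Ormdl1, opposite Pms1, by -0.03 and Aimp2, opposite Pms2, by 0.01, with no raw p under 0.05 in any comparison.

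Across the 13 mice, Exo1 had the highest correlation of the members with the mitosis genes. Its Pearson's r with their mean log2 RPKM was 0.74 (permutation p = 0.0022, adjusted over 28 relations 0.061) and Spearman's rho was 0.75 (permutation p = 0.0043, adjusted 0.12). The r was 0.48 without old-OSKM mouse 1 and old mouse 3, the 2 mice farthest from the median of the mitosis level, and 0.66 with values centred on their group means (permutation p = 0.014, adjusted 0.39). The relation therefore rests in part on those 2 mice and did not pass adjustment. For Pcna r was 0.53 (permutation p = 0.061, adjusted 0.38) but rho 0.15 (permutation p = 0.62, adjusted 0.98), and r was 0.13 without the same mice. Msh3 ran the other way (r = -0.55, permutation p = 0.044, adjusted 0.38; rho = -0.47, permutation p = 0.11, adjusted 0.77), and r was -0.11 without them.

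**Figure D4:**
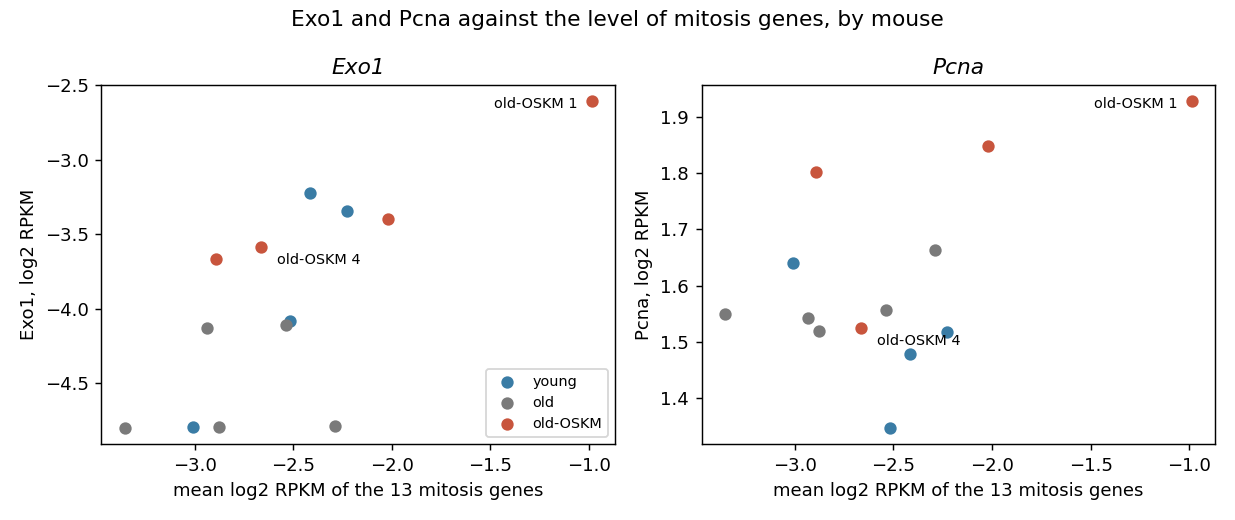
Log2 RPKM of Exo1 and Pcna (y axes) against the mean log2 RPKM of the 13 mitosis genes (x axes), 1 point per mouse and coloured by group. Old-OSKM mouse 1 has the highest mitosis level (-0.98) and the highest Exo1 (-2.61) and Pcna (1.93), and without it and old mouse 3 the r of 0.74 for Exo1 is 0.48.

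Among the 7 members themselves, none of the 21 pairs passed adjustment over the 28 relations, and r ranged from -0.58 (Msh3 with Exo1; permutation p = 0.038, adjusted 0.38; rho = -0.55, permutation p = 0.053, adjusted 0.62) to 0.52 (Msh3 with Msh6; permutation p = 0.068, adjusted 0.38; rho = 0.53, permutation p = 0.067, adjusted 0.62). For Msh3 with Exo1 r was -0.32 without young mouse 3 and old-OSKM mouse 1. For the recognition genes Msh3 and Msh6, r was 0.83 without those mice (permutation p = 0.0018, adjusted 0.049). Over the 13 mice the genes most like each member by Pearson's r, among genes with a mean above 0 log2 RPKM, were Atp8b1 (0.88) for Msh3, Snrpc (0.94) for Msh6, Fbxo38 (0.81) for Mlh3, Spryd3 and Mtmr4 (0.77 each) for Pms1, Nop16 (0.83) for Pms2, Akr1a1 (0.91) for Exo1 and Cisd3 (0.79) for Pcna. Each is the top of 8406 or 8407 genes and is given as a description.

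Markers of other cell types moved in the same comparison as Exo1 and Pcna. In old-OSKM against old mice, 36.9% of all genes were above 0 and 3.98% were higher at a raw p under 0.05. For macrophage markers 6 of 6 were above 0 (5 at a raw p under 0.05; summed level 13.8 to 38.2 RPKM against 9.06 to 15.7), as were 6 of 6 fibroblast markers (4 at a raw p under 0.05; 24.6 to 69.3 against 18.6 to 24.2) and 4 of 4 adipocyte markers (3 at a raw p under 0.05; 3.29 to 13.2 against 2.84 to 5.18). Macrophage sums were 38.2 and 31.4 in old-OSKM mice 1 and 4, while mice 2 and 3 (13.8 and 14.9) lay inside the old range. Adipocyte sums were 10.3 and 13.2 in mice 1 and 4, while mice 2 and 3 (3.33 and 3.29) lay inside the old range. The fibroblast sum was above the old range in every old-OSKM mouse. For B and plasma cell markers 6 of 6 were above 0 (3.71 to 13.5 against 2.71 to 8.19) and for T cell markers 4 of 4 (0.676 to 4.49 against 0.705 to 1.73), with none at a raw p under 0.05. The T cell sum was above the old range in old-OSKM mouse 1 and below it in old-OSKM mouse 2. Of 6 islet beta markers 0 were above 0 (65.7 to 424.7 against 145.4 to 343). None of the summed marker levels was at 0, and their part in the values of Exo1 and Pcna was not tested. Without old-OSKM mice 1 and 4, a setting chosen after seeing the data, the differences from old mice were 0.99 for Exo1 and 0.26 for Pcna, both with a raw p under 0.05 and a limma adjusted p of 0.98, and Exo1 did not meet the study's rule. Within the mice whose sample identifiers form the first of the 2 runs in the labels (2 young, 4 old and 4 old-OSKM mice), the differences were 1.14 for Exo1 and 0.20 for Pcna.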

How the data were processed

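RNA of whole pancreas from 13 mice was depleted of ribosomal RNA, made into libraries and sequenced in pairs. The paper does not say whether the library kit marks strand. Per the study's methods, the authors aligned reads to mm10 with STAR 2.3.0e, excluded reads that mapped to 5 or more places, estimated isoform RPKM with the package Casper, combined isoforms into genes by Entrez identifier, and then applied a log2 transform and quantile normalization. The deposited values are log2 RPKM, used as they are. The paper states a common number of reads per sample. The deposited values hold no counts or read totals of single samples, so the authors' correction by total reads could not be made. Pcna has pseudogene copies, whose reads may be shared with it.

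The main test was limma 3.58.1, run in R 4.3.3 (every group in one fit, no covariate, Benjamini-Hochberg over 23366 genes), tested first on simulated data, and members also by exact permutation. Correlations used 100000 permutations (scipy 1.17.1). The text names all members, at most the 3 genes of a list with the smallest raw p in a comparison, genes that start opposite a member, and the genes most like each member. The members and lists were chosen with earlier results of these data known. Dixon's rule for outliers was applied to each member in each group. Alternatives covered normalization, pseudocounts, a filter, the fit, the run of sample identifiers and each mouse left out. Protein sequences were not used here, so the planned search for protein motifs was not made, and 1 item is not reported here.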

Additional observations from a re-analysis of the deposited data

Results flagged for a closer look

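Of 21 sets of values (7 members in 3 groups), 1 held a mouse far from the others by Dixon's criterion. Pcna in old mouse 1 was 1.66 log2 RPKM, while the other 4 old mice lay between 1.52 and 1.56, a gap of 0.740 of the range against a critical value of 0.710. Chance alone marks about 1 in 20 such sets. Leaving this mouse out left the direction of all Pcna differences as it was.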

How the results depend on the processing

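No paired analysis was possible because the labels give no replicate numbers shared between groups. Under every alternative run, no member reached an adjusted p under 0.05 in any comparison. For old-OSKM against old mice, 1 member met the study's rule, but 0 did with a pseudocount of 1 or 0.1, 0 with a filter on mean log2 RPKM above 0, 0 without old-OSKM mice 1 and 4 (an alternative chosen after seeing the data), and 0 to 1 with each mouse left out. Of 2 members with a raw p under 0.05, the filter (which removes Exo1, Pms1 and Pms2) and the exact permutation test each left 1, the fit of the 2 groups alone gave 3 (Pms1 added), and leaving out mice gave 1 to 3. For old-OSKM against young mice the exact permutation test left 0 of 1, and leaving out mice gave 1 to 2. For old against young mice leaving out mice gave 0 to 1 by either rule, beside 0. Without the 2 mice farthest on the x measure, 1 of 28 relations passed adjustment, beside 0. The members' median difference for old-OSKM against old mice was 0.11, and the 4 members that passed the filter had a median of -0.06.

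Small differences changed sign. With a term for the run of sample identifiers in the fit, Msh6 and Mlh3 were at -0.083 and -0.0050 in old-OSKM against young mice. Without old-OSKM mice 1 and 4, Msh3 and Msh6 were at 0.044 and 0.12 against old mice, and Msh3 and Pms1 at 0.086 and 0.13 against young mice. Leaving out these 2 mice put 59.2% of all genes above 0 against old mice, beside 36.9% with all mice. With each mouse left out, the ranges that cross 0 were -0.038 to 0.12 (Msh3) and -0.024 to 0.13 (Pms2) for old against young, -0.14 to 0.053 (Msh6) and -0.10 to 0.0061 (Mlh3) for old-OSKM against old, and -0.14 to 0.0165 (Msh3), -0.062 to 0.13 (Msh6) and -0.17 to 0.13 (Pms1) for old-OSKM against young mice. The cause was not tested.

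Over all genes, calls by the study's rule were 207, 176 and 146 (old against young, old-OSKM against old, old-OSKM against young), 16, 2 and 8 with a pseudocount of 1, 116, 77 and 76 with 0.1, and 44, 35 and 19 with the filter, while leaving out mice gave 175 to 280, 94 to 338 and 121 to 253. Calls by adjusted p were 19, 1 and 10, with ranges of 5 to 29, 0 to 5 and 3 to 14 over all alternatives. By the study's rule, old-OSKM against old mice had 80 without old-OSKM mice 1 and 4.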
